A study of Mus musculus with 9 samples.

Results

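The genes described here are 10 members of the Bcl2 family, which sets whether a stressed cell lives or dies, read in primary mammary tumours of the mouse. They were chosen by name: every probe set that the array annotation gives to one of the 10 genes alone was taken, and where a gene had several, the brightest of them on average stands for it. In this way 9 of the 10 genes were found, with 30 probe sets among 18193 genes and 45101 probe sets in all, and all 9 passed the filter on low values. Bax, which codes for a pore-forming effector, had no probe set annotated to it alone and was not analysed here.

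The tumours grew in female BALB/c mice aged 7 to 9 weeks, each given 1000000 viable cells of 1 of 3 mammary carcinoma lines (67NR, 66cl4 or 4T1, all in their CMVLUC form) into a mammary gland, with 3 mice per line. The tumours were taken at day 15, and total RNA came from the tumour part of laser-captured sections. The 3 lines share an origin in 1 spontaneous BALB/c mammary tumour; 67NR is known as the line that does not spread, and 66cl4 and 4T1 as lines that do. Each line is a single cell line without an uninjected gland beside it, so a difference between lines is a difference between these 3 lines, and the captured tissue could also hold host cells.

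Array medians lay between 5.51 and 5.58 on the deposited log2 scale, and arrays correlated at 0.972 to 0.991 within a line and at 0.867 to 0.918 between lines across tested genes. The highest bacterial control probe set of each array, used as its background, lay between 4.83 and 5.08. The summed log2 level of the epithelial markers was 9.32 to 9.43 in 67NR, 12.96 to 13.30 in 66cl4 and 14.73 to 14.97 in 4T1. Krt8, a keratin of simple epithelium, averaged 6.74 ± 0.18 in 67NR, 13.01 ± 0.20 in 66cl4 and 13.48 ± 0.20 in 4T1 (log2, SD, n = 3), and Cdh1, the epithelial cadherin, was not above background on any 67NR or 66cl4 array. Of the 10 epithelial markers, 2 were higher in 66cl4 than in 67NR and 8 were not called, with a median difference of 0.32, so that Krt8 made up most of the 66cl4 sum. Of the 10, 1 was not above background in 67NR, 1 in 66cl4 and 0 in 4T1. All 67NR arrays carry the highest scan file numbers of the series, so that number partly moves with the line.

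The Bcl2 family works at the outer mitochondrial membrane. Bcl2, Bcl2l1 (Bcl-xL) and Mcl1 hold cells alive by binding the death-promoting members; Bak1 and Bax form the pores that release cytochrome c; and the BH3-only members Bid, Bcl2l11 (Bim), Bbc3 (Puma), Pmaip1 (Noxa) and Bik carry stress signals to them. Released cytochrome c joins Apaf1 in the apoptosome, which activates caspases. In tumours the balance of these genes is known to bear on survival under stress and on the response to treatment.

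Among the members, Bcl2 and Bbc3 carried the largest differences between lines, and Bcl2l11 had a forkhead match. For Mcl1, all 6 probe sets were called lower in 4T1 than in 67NR. For these reasons, the promoter sequences of these 4 members are shown. Each is the 250 bases before a RefSeq gene start (build GRCm38.p6), written 5′ to 3′ on the gene's strand, and capitals mark matches on either strand to the GC box GGGCGG or to the forkhead core GTAAACA.
Bcl2 (chr1:106714291-106714540, minus strand): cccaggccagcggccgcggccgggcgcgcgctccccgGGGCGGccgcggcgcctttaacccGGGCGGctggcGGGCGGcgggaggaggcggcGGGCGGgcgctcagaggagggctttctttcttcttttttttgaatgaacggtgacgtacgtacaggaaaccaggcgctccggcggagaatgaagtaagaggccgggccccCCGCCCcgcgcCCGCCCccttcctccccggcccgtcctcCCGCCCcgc
Mcl1 (chr3:95658471-95658720, plus strand): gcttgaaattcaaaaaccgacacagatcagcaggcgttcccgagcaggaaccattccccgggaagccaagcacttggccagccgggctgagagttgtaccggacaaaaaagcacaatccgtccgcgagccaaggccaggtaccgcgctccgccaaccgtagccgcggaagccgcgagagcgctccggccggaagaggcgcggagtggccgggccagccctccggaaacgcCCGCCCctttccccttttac
Bcl2l11 (chr2:128125788-128126037, plus strand): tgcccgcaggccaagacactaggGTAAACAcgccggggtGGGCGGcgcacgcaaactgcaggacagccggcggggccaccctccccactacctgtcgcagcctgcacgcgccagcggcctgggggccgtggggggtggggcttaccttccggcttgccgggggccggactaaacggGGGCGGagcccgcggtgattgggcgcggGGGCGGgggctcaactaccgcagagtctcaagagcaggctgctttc
Bbc3 (chr7:16310011-16310260, plus strand): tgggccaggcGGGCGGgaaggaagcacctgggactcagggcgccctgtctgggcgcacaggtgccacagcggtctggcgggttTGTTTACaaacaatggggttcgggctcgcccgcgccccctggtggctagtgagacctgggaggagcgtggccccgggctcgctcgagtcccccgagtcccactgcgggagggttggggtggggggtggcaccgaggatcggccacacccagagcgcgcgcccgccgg
The RefSeq table held 13 such windows for 8 of the 10 genes, and the Bbc3 window shown is 1 of 3 and the Bcl2l11 window 1 of 2, both picked after the search because they hold the forkhead letters, which the others of these genes do not.

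The Bcl2 window held 7 GC boxes, the Bcl2l11 window shown 3, and the Mcl1 window and the Bbc3 window shown 1 each. The Bbc3 windows not shown held 5 and 7, and the Bcl2l11 window not shown held 2. The GC box was found in 9 of the 13 member windows and in 32.7% of all 32851 windows of the same length. The forkhead core stood at position -227 of the Bcl2l11 window and at position -167 of the Bbc3 window, counted back from the gene start; it occurred in 2 of 13 member windows and in 3.17% of all windows. The letters TTCNNNGAA, a core bound by STAT factors, occurred in 0 of 13 member windows and in 7.02% of all windows. A match describes the letters and not a bound site.

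Across the 3 lines, 5 of the 9 measured members differed by limma's moderated F-test at an adjusted p under 0.05, namely Bcl2, Bcl2l1, Bbc3, Pmaip1 and Bik. The same test called 56.6% of all 13409 genes tested, so the members' share was near the background. Leaving out 1 array at a time gave 3 to 6 members.

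Between 4T1 and 67NR, 1 member was higher in 4T1 (Bcl2) and 1 was lower (Mcl1), while 19.4% of all tested genes were higher, 20.5% lower and 39.9% either. Between 66cl4 and 67NR, 1 member was higher in 66cl4 (Bbc3) and 2 were lower (Pmaip1 and Bik), against 20% higher, 16% lower and 36.1% either among all genes. Between 4T1 and 66cl4, 2 members were higher in 4T1 (Bcl2 and Pmaip1) and 2 were lower (Bcl2l1 and Bbc3), against 17.9% higher, 23.4% lower and 41.3% either. In none of the comparisons was the members' share well above that of all genes. The members' median log2 difference was -0.12, -0.13 and -0.02 in these comparisons, beside -0.03, 0.01 and -0.03 over all genes. Each line serves in 2 of the 3 comparisons, so they are not independent of each other.

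**Figure D1:**
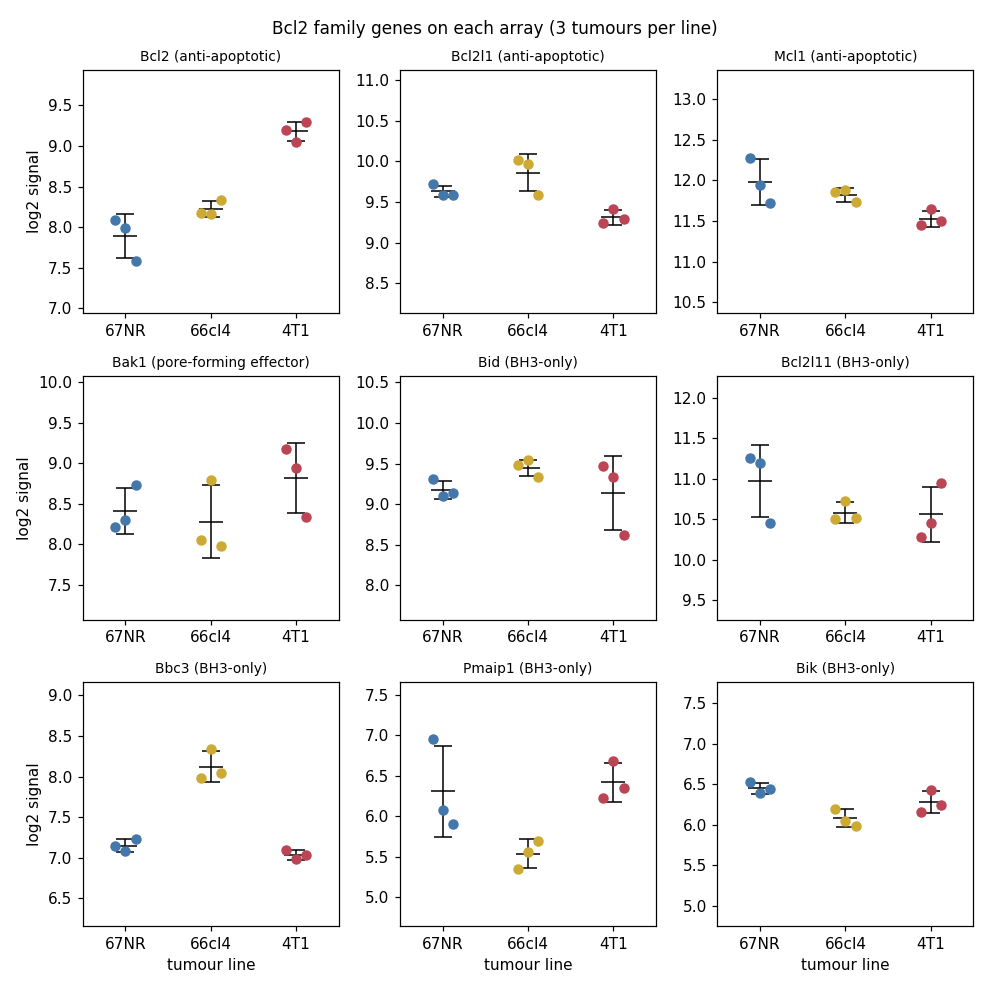
Log2 signal of the 9 measured Bcl2 family genes on each array, by tumour line (67NR, 66cl4, 4T1), with 1 point per tumour, the mean as the wide bar and 1 SD as the error bar; each panel spans the same number of log2 units. Bcl2 lay between 9.05 and 9.30 on the 4T1 arrays and at or below 8.33 on the others, and Bbc3 lay at or above 7.98 on the 66cl4 arrays and at or below 7.23 on the others.

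Among the survival genes, Bcl2, which blocks the pore-forming effectors, was the member with the largest difference. Its log2 signal was 8.09, 7.99 and 7.58 in the 67NR tumours, 8.17, 8.16 and 8.33 in the 66cl4 tumours and 9.20, 9.05 and 9.30 in the 4T1 tumours. All 4T1 arrays lay above all others, and the 66cl4 arrays lay just above the 67NR arrays without overlap. Bcl2 was higher in 4T1 than in 67NR by 1.30 ± 0.14 (log2 difference, SE), a 2.46-fold difference with an adjusted p of 8.03e-05, and higher in 4T1 than in 66cl4 by 0.96 ± 0.14, a 1.95-fold difference with an adjusted p of 0.000502. The difference of 0.33 ± 0.14 between 66cl4 and 67NR was not called (adjusted p = 0.0959).

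The 5 Bcl2 probe sets all gave positive differences between 4T1 and 67NR, from 0.82 to 1.30, and 4 of them were called. Between 4T1 and 66cl4 they spanned 0.64 to 0.96, with 3 called. None was called between 66cl4 and 67NR, where they ran from -0.10 to 0.33. In bulk tissue, fewer cells of a type and less RNA per cell cannot be told apart. Epithelial markers moved with Bcl2, with 9 of 10 higher in 4T1 than in 67NR and 8 of 10 higher than in 66cl4; neutrophil markers (5 of 9 higher than in 67NR, 6 of 9 higher than in 66cl4) also moved with it, with a summed level of 12.20 to 12.70 in 4T1, 10.73 to 11.67 in 67NR and 10.09 to 11.28 in 66cl4. Among the epithelial markers, Cdh1 passed the filter on low values only through the 4T1 arrays, where it is high, so its calls add no support. B and plasma cells also express Bcl2. Their markers summed to 9.41 to 14.72 in 4T1, 10.61 to 12.47 in 67NR and 8.62 to 9.70 in 66cl4. The part of these cell types in the result was not tested.

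Bcl2l1, whose main protein Bcl-xL also guards the mitochondrial membrane, ran the other way in 4T1. Its log2 signal was 9.72, 9.59 and 9.59 in 67NR, 10.02, 9.97 and 9.59 in 66cl4 and 9.24, 9.41 and 9.29 in 4T1. Every 4T1 array lay below every array of the other lines, and 66cl4 overlapped 67NR. It was lower in 4T1 than in 66cl4 by 0.55 on the log2 scale (log2 difference -0.55 ± 0.13, a 1.46-fold difference, adjusted p = 0.00686). The difference of -0.32 ± 0.13 between 4T1 and 67NR missed the threshold at an adjusted p of 0.0707; it passed with the mean of the gene's probe sets (adjusted p = 0.0198) and without 66cl4 replicate 3 (adjusted p = 0.0323). The difference of 0.22 ± 0.13 between 66cl4 and 67NR was not called (adjusted p = 0.199); without 66cl4 replicate 3 it was 0.36 and was called (adjusted p = 0.04).

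Of the 4 Bcl2l1 probe sets, 1 was never above background and was not tested. The other 3 were all lower in 4T1 than in 66cl4, at log2 differences of -0.70 to -0.55, and 2 of the 3 were lower in 4T1 than in 67NR, over a range of -0.62 to -0.32. Between 66cl4 and 67NR they gave 0.08 to 0.22, none called. Macrophage markers moved with Bcl2l1: 10 of 11 were lower in 4T1 than in 66cl4, with a summed level of 14.39 to 14.63 in 4T1 and 15.68 to 16.01 in 66cl4. Their part in the result was not tested.

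Mcl1, a short-lived protein on which many blood and tumour cells depend, was lower in 4T1 than in 67NR. Its log2 signal was 12.28, 11.95 and 11.72 in 67NR, 11.86, 11.88 and 11.73 in 66cl4 and 11.45, 11.65 and 11.50 in 4T1. The 4T1 arrays lay below all others, with the lowest 67NR array close above them. The log2 difference between 4T1 and 67NR was -0.45 ± 0.14, a 1.37-fold difference with an adjusted p of 0.029. Mcl1 did not pass between 66cl4 and 67NR (-0.16 ± 0.14, adjusted p = 0.414) or between 4T1 and 66cl4 (-0.29 ± 0.14, adjusted p = 0.132), nor in the F-test over the lines (adjusted p = 0.0514).

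The Mcl1 call ended without 67NR replicate 1 (-0.31, adjusted p = 0.0926), 67NR replicate 2 (-0.47, adjusted p = 0.0654), 4T1 replicate 1 (-0.41, adjusted p = 0.0773) or 4T1 replicate 3 (-0.44, adjusted p = 0.064). It also ended with scan file number as covariate (-0.53, adjusted p = 0.171), with hybridization controls as covariate (-0.74, adjusted p = 0.0598) and with the 66cl4 arrays left out of the fit (-0.45, adjusted p = 0.0569), where the difference was as large or larger. With the mean of its probe sets, Mcl1 was also lower in 4T1 than in 66cl4 (-0.41, adjusted p = 0.0378). In the fit over probe sets, all 6 for Mcl1 passed the test with a lower level in 4T1 than in 67NR, at log2 differences of -1.03 to -0.44. Of the 6, 3 were lower in 4T1 than in 66cl4 (-0.66 to 0.01) and 1 was lower in 66cl4 than in 67NR (-0.45 to -0.16). Beside Mcl1, 10 of 11 macrophage markers were lower in 4T1 than in 67NR. Their summed level was 14.39 to 14.63 in 4T1, 15.46 to 15.62 in 67NR and 15.68 to 16.01 in 66cl4. Mast cell markers (9 of 9 lower) and endothelial markers (8 of 10 lower, 1 higher) also differed between 4T1 and 67NR. Mast cell markers summed to 8.72 to 9.23 in 4T1, 14.07 to 14.57 in 67NR and 9.16 to 9.48 in 66cl4. Of these markers, 2 were not above background in 4T1 and passed the filter only through the 67NR arrays, so their calls add no support. The part of these cell types in the result was not tested.

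**Figure D2:**
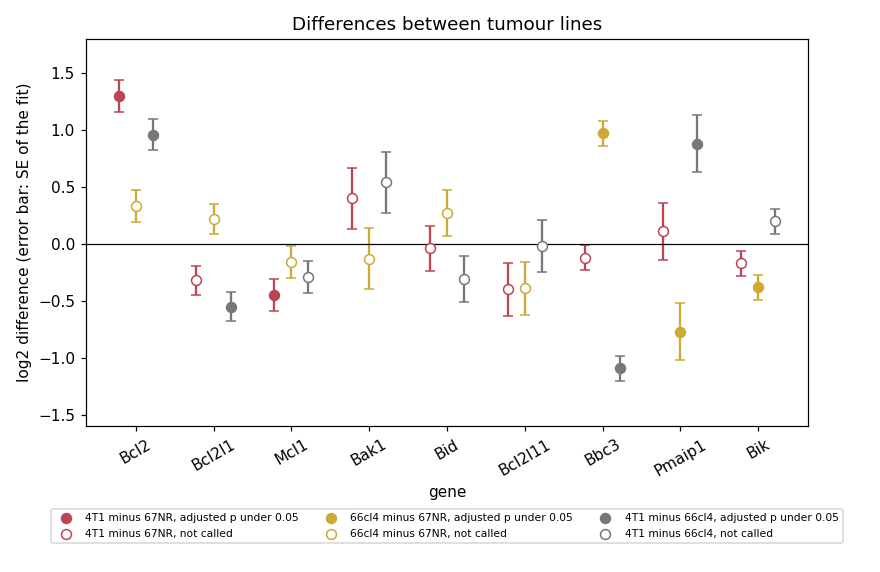
Log2 difference between tumour lines for each of the 9 measured genes, with the standard error of the fit as the error bar; filled points passed an adjusted p under 0.05 and open points did not. Bcl2 stands at 1.30 and 0.96 in the comparisons with 4T1, and Bbc3 at 0.97 and -1.09 in the comparisons with 66cl4.

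Bak1, the measured pore-forming effector, was not called in any comparison with all arrays in the fit. Its log2 signal ran from 8.21 to 8.73 in 67NR, 7.98 to 8.80 in 66cl4 and 8.34 to 9.17 in 4T1, and all 3 lines overlapped. The log2 difference was 0.40 ± 0.27 between 4T1 and 67NR (adjusted p = 0.266), -0.13 ± 0.27 between 66cl4 and 67NR (adjusted p = 0.734) and 0.54 ± 0.27 between 4T1 and 66cl4 (adjusted p = 0.139). The last of these was called without 66cl4 replicate 2 (0.80, adjusted p = 0.0351) and without 4T1 replicate 3 (0.78, adjusted p = 0.041). The SD between tumours of a line reached 0.45, in 66cl4. Its 2 probe sets gave 0.40 to 0.79, -0.13 to -0.11 and 0.54 to 0.89 in these comparisons, none called.

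Among the BH3-only genes, Bbc3 (Puma), a p53 target that also answers growth factor loss, was high in 66cl4. Its log2 signal was 7.15, 7.08 and 7.23 in 67NR, 7.98, 8.34 and 8.04 in 66cl4 and 7.09, 6.98 and 7.03 in 4T1. The 66cl4 arrays lay apart from all others, while 67NR and 4T1 overlapped. Bbc3 was higher in 66cl4 than in 67NR by 0.97 ± 0.11 (log2), a 1.96-fold difference with an adjusted p of 0.00018, and lower in 4T1 than in 66cl4 (log2 difference -1.09 ± 0.11, 2.12-fold, adjusted p = 6.64e-05). Between 4T1 and 67NR the difference was -0.12 ± 0.11 (adjusted p = 0.462). Bbc3 had the smallest F-test p of the members, adjusted to 6.85e-05, on its 1 probe set.

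Over the 9 arrays, the genes most like Bbc3 by Pearson's r were Cpne8 (r = 0.983), Cpsf4 (r = 0.983) and Iqcg (r = 0.982). Cpne8 averaged 7.76 in 67NR, 8.75 in 66cl4 and 7.65 in 4T1, and Cpsf4 averaged 8.62, 8.92 and 8.58 in the same order. Iqcg was not above background in 67NR or 4T1 and averaged 5.78 in 66cl4, at least 1.79-fold higher than in 67NR and at least 1.76-fold higher than in 4T1, taking the background level of each array of the dim line as its bound. Iqcg passed the filter on low values only through the 66cl4 arrays, where it is high, so its likeness adds no support. The points of each correlation share the arrays and the line means, so the correlations are a description. Beside Bbc3, macrophage markers summed to 15.68 to 16.01 in 66cl4, 15.46 to 15.62 in 67NR and 14.39 to 14.63 in 4T1; 4 of 11 were higher and 1 lower in 66cl4 than in 67NR, and 10 of 11 were lower in 4T1 than in 66cl4; their part in the result was not tested.

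Pmaip1 (Noxa), a BH3-only protein that binds Mcl1, was low in 66cl4. Its log2 signal was 6.95, 6.08 and 5.90 in 67NR, 5.35, 5.56 and 5.70 in 66cl4 and 6.22, 6.68 and 6.35 in 4T1. Every 66cl4 array lay below every array of the other lines, and 67NR overlapped 4T1. It was lower in 66cl4 than in 67NR (log2 difference -0.77 ± 0.25, 1.71-fold, adjusted p = 0.0359) and higher in 4T1 than in 66cl4 (0.88 ± 0.25, 1.84-fold, adjusted p = 0.0182); between 4T1 and 67NR it gave 0.11 ± 0.25 (adjusted p = 0.772). It has 1 probe set, whose level in 66cl4 lies within 1 log2 unit of background.

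The call of Pmaip1 between 66cl4 and 67NR ended without 67NR replicate 1 (-0.45, adjusted p = 0.0759), 66cl4 replicate 1 (-0.68, adjusted p = 0.109), 66cl4 replicate 2 (-0.78, adjusted p = 0.0789) or 66cl4 replicate 3 (-0.86, adjusted p = 0.0514). It also ended with scan file number as covariate (-0.65, adjusted p = 0.198) and with hybridization controls as covariate (-0.87, adjusted p = 0.0607). The call between 4T1 and 66cl4 ended without 66cl4 replicate 1 (0.79, adjusted p = 0.0637) or 4T1 replicate 2 (0.75, adjusted p = 0.0645) and with hybridization controls as covariate (0.75, adjusted p = 0.121). T and NK cell markers moved with Pmaip1: 11 of 11 were lower in 66cl4 than in 67NR, and 5 of 11 were higher and 1 lower in 4T1 than in 66cl4, with a summed level of 9.99 to 10.32 in 66cl4, 11.10 to 11.57 in 67NR and 10.94 to 11.76 in 4T1. Endothelial markers moved with it in these 2 comparisons. Of 10, 9 were lower and 1 higher in 66cl4 than in 67NR, and 5 were higher and 0 lower in 4T1 than in 66cl4. Their summed level was 10.53 to 10.79 in 66cl4, 12.31 to 12.91 in 67NR and 11.28 to 11.42 in 4T1. Between 4T1 and 67NR, where Pmaip1 was not called, 8 of 10 endothelial markers were lower in 4T1 and 1 higher. Of the 11 T and NK cell markers, 4 were lower and 1 higher there. The part of these cell types in the result was not tested.

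Bik, a BH3-only protein of the endoplasmic reticulum, was lower in 66cl4 than in 67NR. Its log2 signal was 6.53, 6.39 and 6.44 in 67NR, 6.20, 6.05 and 5.98 in 66cl4 and 6.16, 6.43 and 6.25 in 4T1. The 67NR arrays lay above the 66cl4 arrays without overlap, and 4T1 overlapped both. The log2 difference between 66cl4 and 67NR was -0.38 ± 0.11, a 1.30-fold difference with an adjusted p of 0.0225. The other comparisons of Bik, -0.17 ± 0.11 between 4T1 and 67NR (adjusted p = 0.243) and 0.20 ± 0.11 between 4T1 and 66cl4 (adjusted p = 0.168), were not called. With the mean of its probe sets, the difference between 4T1 and 67NR was -0.37 and was called (adjusted p = 0.0256). That mean includes a probe set that was not above background in 66cl4 or 4T1.

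The Bik call ended without 67NR replicate 1 (-0.34, adjusted p = 0.075), 67NR replicate 3 (-0.38, adjusted p = 0.054), 66cl4 replicate 2 (-0.36, adjusted p = 0.0667) or 66cl4 replicate 3 (-0.33, adjusted p = 0.0783). It also ended with scan file number as covariate (-0.43, adjusted p = 0.0596) and with hybridization controls as covariate (-0.39, adjusted p = 0.0603), where the difference did not shrink. Among its 3 probe sets, 2 were lower in 66cl4 than in 67NR and 1 was lower in 4T1 than in 67NR. The probe set called in both comparisons was above background in 67NR alone, at 5.27, 5.06 and 5.18. Its level there was at least 1.20-fold higher than in 66cl4 and at least 1.15-fold higher than in 4T1. It passed the filter on low values only through the 67NR arrays, where it is high, so its calls add no support. The remaining probe set lay close to background and was not called between 66cl4 and 67NR (-0.28 ± 0.12, adjusted p = 0.111). The Bik call therefore rests on the 1 probe set that stands for the gene. Beside Bik, mast cell markers were lower in 66cl4 than in 67NR in 9 of 9 genes. Their summed level was 9.16 to 9.48 against 14.07 to 14.57. Of these markers, 2 were not above background in 66cl4 and passed the filter only through the 67NR arrays, so their calls add no support. Endothelial markers were lower in 9 of 10 genes, at 10.53 to 10.79 against 12.31 to 12.91. The part of these cell types in the result was not tested.

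Bid, which caspase-8 cleaves to join the death receptor route to mitochondria, ran from 9.10 to 9.31 in 67NR, 9.34 to 9.54 in 66cl4 and 8.62 to 9.47 in 4T1 on the log2 scale. The 66cl4 arrays lay above the 67NR arrays without overlap, and the 4T1 arrays overlapped both, with 1 low tumour at 8.62. The differences were -0.04 ± 0.20 between 4T1 and 67NR (adjusted p = 0.885), 0.27 ± 0.20 between 66cl4 and 67NR (adjusted p = 0.32) and -0.31 ± 0.20 between 4T1 and 66cl4 (adjusted p = 0.238). Of its 3 probe sets, 1 was lower in 4T1 than in 66cl4 (-0.67, adjusted p = 0.0308).

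Bcl2l11 (Bim), which binds every survival member and is induced by forkhead factors, ran from 10.46 to 11.25 in 67NR, 10.50 to 10.73 in 66cl4 and 10.28 to 10.95 in 4T1. The lines overlapped, with 2 of the 67NR arrays above all others and the remaining one at 10.46. The differences were -0.40 ± 0.23 between 4T1 and 67NR (adjusted p = 0.195), -0.39 ± 0.23 between 66cl4 and 67NR (adjusted p = 0.223) and -0.02 ± 0.23 between 4T1 and 66cl4 (adjusted p = 0.958). Without 67NR replicate 3, the array at 10.46, Bcl2l11 was called lower than in 67NR both in 4T1 (-0.66, adjusted p = 0.027) and in 66cl4 (-0.64, adjusted p = 0.0341). Of its 5 probe sets, 1 was lower in 66cl4 than in 67NR (-0.50, adjusted p = 0.0257), and the 5 spanned -0.50 to -0.27 there.

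Counted over the 29 tested member probe sets, 4 were higher and 9 lower in 4T1 than in 67NR, against 16.2% higher and 16.6% lower over all 28223 probe sets tested. Between 66cl4 and 67NR, 1 was higher and 5 lower, against 15.7% and 12.1%. Between 4T1 and 66cl4, 4 were higher and 8 lower, against 14.4% and 18.7%. Mcl1 supplied 6 of the 9 lower probe sets in the first of these counts, and probe sets of a gene read the same RNA, so they are not separate evidence. Both counts of lower probe sets against 67NR include the Bik probe set that passed the filter only through the 67NR arrays. Its calls add no support. The count of 6 between 66cl4 and 67NR rests on single arrays: it was 2 without 67NR replicate 1, 67NR replicate 2 or 66cl4 replicate 2, and 10 without 67NR replicate 3.

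**Figure D3:**
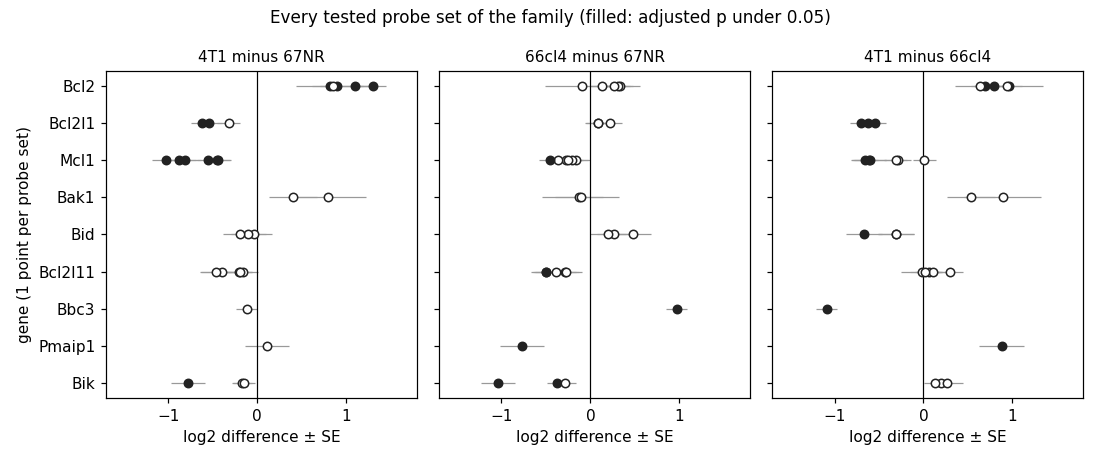
Log2 difference of each of the 29 tested probe sets of the family, 1 point per probe set and 1 row per gene, with the standard error as a line; filled points passed an adjusted p under 0.05 in the fit over all probe sets. All 6 Mcl1 probe sets lie between -1.03 and -0.44 in 4T1 minus 67NR, and the 5 Bcl2 probe sets between 0.82 and 1.30.

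Of 61 further genes of the pathway, 52 were tested. Between 4T1 and 67NR 12 rose and 7 fell in 4T1 (19.4% and 20.5% of all genes), between 66cl4 and 67NR 17 rose and 8 fell in 66cl4 (20% and 16%), and between 4T1 and 66cl4 13 were higher and 7 lower in 4T1 (17.9% and 23.4%). The counts of the single lists stand against these same shares of all genes. The median log2 differences of the 52 genes were 0.14, 0.05 and 0.09, beside -0.03, 0.01 and -0.03 over all genes.

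Among other survival relatives, 1 of 5 listed genes was tested. This gene, Bcl2l2 (Bcl-w), averaged 7.66 in 67NR, 8.13 in 66cl4 and 8.14 in 4T1 on the log2 scale; it was higher in 66cl4 by 0.47 ± 0.09 (adjusted p = 0.00369) and in 4T1 by 0.48 ± 0.09 (adjusted p = 0.00267) than in 67NR.

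Of 8 tested death genes outside the 10 members, 2 were higher and 1 lower in 4T1 than in 67NR, 3 higher and 1 lower in 66cl4 than in 67NR, and 3 higher in 4T1 than in 66cl4. Bok, a Bax-like effector, averaged 8.21 in 67NR, 8.63 in 66cl4 and 9.91 in 4T1, and its differences of 1.71 ± 0.12 (4T1 minus 67NR, adjusted p = 5.84e-06) and 1.28 ± 0.12 (4T1 minus 66cl4, adjusted p = 3.45e-05) were called. Bnip3, a mitophagy receptor induced by low oxygen, was higher than in 67NR by 2.65 ± 0.32 in 4T1 (adjusted p = 0.000156) and by 1.98 ± 0.32 in 66cl4 (adjusted p = 0.0011). Bmf, a BH3-only gene, averaged 6.92, 6.10 and 6.94 in 67NR, 66cl4 and 4T1, lower in 66cl4 than in 67NR (-0.82 ± 0.25, adjusted p = 0.0288). Bcl2l12 was lower in 4T1 than in 67NR (-0.35 ± 0.10, adjusted p = 0.0216).

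Among the 10 genes of mitochondrial release and the apoptosome, 1 rose and 2 fell in 4T1 against 67NR, 2 rose and 3 fell in 66cl4 against 67NR, and 2 were higher and 1 lower in 4T1 against 66cl4. Apaf1, the apoptosome scaffold, averaged 9.11 in 67NR, 8.70 in 66cl4 and 8.37 in 4T1, with log2 differences from 67NR of -0.42 ± 0.12 (adjusted p = 0.022) and -0.75 ± 0.12 (adjusted p = 0.000886). Cycs, cytochrome c, was lower than in 67NR in 66cl4 (-0.48 ± 0.13, adjusted p = 0.0158) and in 4T1 (-0.52 ± 0.13, adjusted p = 0.00915). Diablo, which frees caspases from their inhibitors, was higher in 66cl4 than in 67NR (0.44 ± 0.11, adjusted p = 0.0106) and lower in 4T1 than in 66cl4 (-0.64 ± 0.11, adjusted p = 0.00124). Endog, a mitochondrial nuclease, was higher in 4T1 than in 66cl4 (0.63 ± 0.14, adjusted p = 0.00497).

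Of 5 tested executioner caspases and targets, 1 was higher in 4T1 than in 67NR, 2 were higher in 66cl4 than in 67NR and 1 was higher in 4T1 than in 66cl4, with none lower. Casp6, an executioner caspase, averaged 8.83 in 67NR, 8.94 in 66cl4 and 9.34 in 4T1 (4T1 minus 67NR 0.52 ± 0.09, adjusted p = 0.00187). Dffa, the inhibitor of the apoptotic nuclease, and Acin1, a chromatin condensation factor, were higher in 66cl4 than in 67NR, by 0.49 ± 0.13 (adjusted p = 0.0158) and 0.37 ± 0.11 (adjusted p = 0.0215).

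Of 6 inhibitors of apoptosis, 1 was higher and 2 lower in 4T1 than in 67NR, 3 were higher in 66cl4 than in 67NR, and 2 were higher and 3 lower in 4T1 than in 66cl4. Birc5 (survivin), which also acts in mitosis, averaged 9.88 in 67NR, 11.01 in 66cl4 and 10.00 in 4T1; it was higher in 66cl4 than in 67NR by 1.14 ± 0.18 (adjusted p = 0.000928). Naip2, which belongs to a family of near-identical genes and may share signal with its copies, averaged 7.67, 8.59 and 7.13, higher in 66cl4 than in 67NR by 0.92 ± 0.18 (adjusted p = 0.00371). Birc2 was higher in 4T1 than in 67NR (0.63 ± 0.16, adjusted p = 0.01), and Birc6 was lower (-0.74 ± 0.18, adjusted p = 0.00862).

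Of 10 tested death receptor genes, 4 were higher in 4T1 than in 67NR, 3 were higher and 2 lower in 66cl4 than in 67NR, and 4 were higher and 1 lower in 4T1 than in 66cl4. Casp8, the initiator that cleaves Bid, averaged 10.17 in 67NR, 9.54 in 66cl4 and 10.33 in 4T1, lower in 66cl4 than in 67NR (-0.63 ± 0.10, adjusted p = 0.0012). Fadd, the adaptor that recruits Casp8, ran the other way, at 7.79, 8.66 and 8.11 (66cl4 minus 67NR 0.86 ± 0.12, adjusted p = 0.000433). Tnfsf10, the TRAIL ligand, averaged 6.80, 5.77 and 8.43, higher in 4T1 than in 67NR by 1.63 ± 0.39 (adjusted p = 0.00848), and Tradd was higher in 4T1 than in 67NR by 0.63 ± 0.10 (adjusted p = 0.000868).

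Of 12 tested regulators of the family, 2 were higher and 2 lower in 4T1 than in 67NR, 3 higher and 2 lower in 66cl4 than in 67NR, and 1 higher and 2 lower in 4T1 than in 66cl4. Foxo3, a forkhead factor, averaged 8.72 in 67NR and 9.77 in 66cl4; it was higher in 66cl4 than in 67NR by 1.05 ± 0.16 (adjusted p = 0.000699) and lower in 4T1 than in 67NR (-0.72 ± 0.16, adjusted p = 0.00496). Mdm2, a p53 target that limits p53, was lower in 66cl4 than in 67NR (-0.86 ± 0.10, adjusted p = 0.000114). It was also lower in 4T1 than in 67NR (-1.07 ± 0.10, adjusted p = 2.14e-05). Bbc3 and Pmaip1, also p53 targets, were not called between 4T1 and 67NR. Between 66cl4 and 67NR Bbc3 was higher and Pmaip1 lower, and that Pmaip1 call was lost when some single arrays were left out. Trp53, the gene of p53, had no probe set annotated to it alone, and the part of p53 was not tested. Huwe1 and Fbxw7 are ubiquitin ligase genes whose products mark Mcl1 protein for destruction. Both were higher in 66cl4 than in 67NR, by 0.70 ± 0.12 (adjusted p = 0.00182) and 0.36 ± 0.10 (adjusted p = 0.0157). Huwe1 was also higher in 4T1 than in 67NR (0.44 ± 0.12, adjusted p = 0.0178), and Fbxw7 was not called there (-0.15 ± 0.10, adjusted p = 0.268). The arrays read RNA and not Mcl1 protein, so the part of these ligases was not tested.

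**Figure D4:**
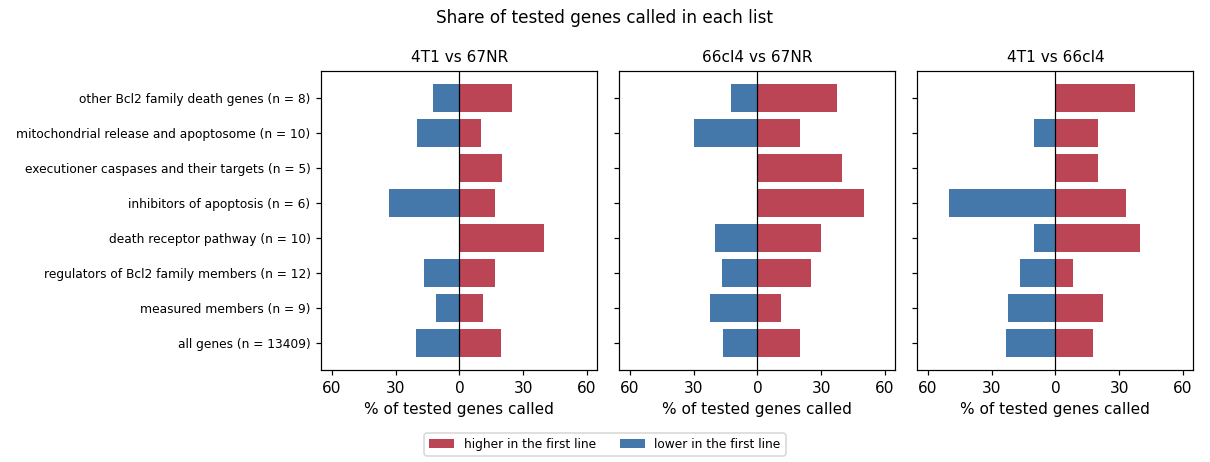
Percent of tested genes called higher (right) or lower (left) in the first line of each comparison, for 6 pathway lists, the 9 measured members and all 13409 genes tested; n gives the genes tested in each list. The members' shares stand beside 19.4% higher and 20.5% lower among all genes between 4T1 and 67NR.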

How the data were processed

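Total RNA of 9 tumours, 1 per mouse and 3 per line, was hybridised to oligonucleotide arrays, 1 per tumour. The deposited values are log2 signals per probe set, as the authors made them; they ran from 2.42 to 14.8, and the background correction, normalization and summarisation behind them are not given in the sources used here. Probe sets were named through the platform annotation, with 34741 symbols updated by Entrez ID to RefSeq (GRCm38.p6): 34945 have 1 gene, 932 several and 9224 none, and 64 are controls. A gene was its brightest probe set by mean, and was tested where it exceeded an array's 40th percentile on 3 or more arrays (4784 genes did not). Differences came from limma 3.58.1 under R 4.3.3 (lmFit, then eBayes; 9 arrays, 3 line means, two-sided, no covariate), with Benjamini-Hochberg adjustment over all 13409 genes, or 28223 probe sets, and a threshold of 0.05; the code was tested on simulated data. The number of arrays limits the precision. A gene at or below the highest of 27 bacterial control probe sets on all arrays of a line was not above background there. The members, gene lists and marker lists were chosen with earlier results of these data known. The genes named are all members, up to 4 tested genes per pathway list with the smallest F-test p, relatives of members, the 2 brightest markers per cell type (of which Krt8 is described), and the 3 genes most like the member with the smallest F-test p; Cdh1 was chosen after its values were seen. Alternatives were quantile normalization, no filter, the mean of a gene's probe sets, only the lines compared, the replicate block, scan file number and hybridization controls as covariates, and leaving out each array.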

Additional observations from a re-analysis of the deposited data

How the results depend on the processing

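Of the 9 member differences called, 5 passed under every alternative: Bcl2 between 4T1 and 67NR (0.99 to 1.40, log2) and between 4T1 and 66cl4 (0.80 to 1.03), Bbc3 between 66cl4 and 67NR (0.86 to 1.04) and between 4T1 and 66cl4 (-1.16 to -0.97), and Bcl2l1 between 4T1 and 66cl4 (-0.68 to -0.47). The others (Mcl1, Bik and both Pmaip1 differences) lost their call under some. Members called between 4T1 and 67NR numbered 2, but 4 with the mean of probe sets, 1 with only the lines compared, 1 with the scan file number, 1 with the hybridization controls and 1 to 3 leaving out 1 array. Between 66cl4 and 67NR they numbered 3, but 1 with the scan file number, 1 with the hybridization controls and 1 to 3 leaving out 1 array. All genes called between 4T1 and 67NR numbered 5347, but 2661 under the scan file covariate and 2151 under the hybridization control covariate. The members that differ among the lines numbered 3 to 6 and the member probe sets called between 66cl4 and 67NR (added after seeing the data) 2 to 10 when 1 array was left out. Replicate numbers do not pair tumours: over 9 pairs with the same number, deviations from line means correlated at -0.11 to 0.16, and 2 pairs exceeded 0.1. With the replicate block, 5057, 4503 and 5179 genes were called (5347, 4838 and 5538 without it), 2, 2 and 4 members in the comparisons and 4 in the F-test; Pmaip1 between 66cl4 and 67NR lost its call (adjusted p = 0.0617). Differences that were not called and changed sign were Bcl2l11 between 4T1 and 66cl4 (0.10 with the mean of probe sets; -0.21 to 0.12 leaving out 1 array), Bid between 4T1 and 67NR (0.33 with the scan file number; -0.21 to 0.22), Bak1 between 66cl4 and 67NR (0.24 with the scan file number; -0.39 to 0.02) and Pmaip1 between 4T1 and 67NR (-0.12 with the hybridization controls; -0.10 to 0.42). The cause was not tested. Signals near background, as for Pmaip1 and Bik, limit what a fold can show.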
